A study of Danio rerio with 2 samples.

Results

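The 56 genes described here act in DNA replication or mitosis. They comprised 19 replication genes, 32 mitosis genes and 5 that also have roles outside division and were kept out of both sums. They were listed by zebrafish symbol and matched by symbol to the Ensembl IDs of the count tables of 2 injured zebrafish hearts. Of the 56, 45 matched, to 47 of the 18139 gene IDs in either table: 14 replication IDs, 28 mitosis IDs and 5 others. The listed genes mcm2, mcm7, rfc4, dut, ccne1, ccne2, ccna2, cdc20, prc1b, ube2c and ccnd1 had no match and were not analysed here. RRM2 and STMN1 each stood for 2 IDs, so reads of near-identical copies may have been split between them and those values are uncertain.

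Before a cell divides it licenses replication origins by loading the MCM helicase, then copies its DNA with the clamp Pcna and with nucleotides from enzymes such as ribonucleotide reductase. The kinase Cdk1 with B-type cyclins then drives mitosis, in which condensins compact the chromosomes, the chromosomal passenger complex guards their attachment and the spindle separates them. After injury of the zebrafish heart, cardiomyocytes near the wound re-enter the cell cycle, and epicardial, endothelial, fibroblast and immune cells divide too. Each section mixes all of these, so fewer cells of a type and less RNA per cell cannot be told apart.

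The series title names BMP signalling in cardiomyocyte regeneration, and the tables give expression along the axis from the injury to remote muscle. They hold CEL-seq counts of single 12 µm cryosections of 2 cryoinjured adult ventricles, 1 collected 7 days after injury (7 dpi) and 1 collected 3 days after injury (3 dpi). Both are titled WT, taken as wild type. CEL-seq tags transcripts near their ends, and low sections run toward the injury, high ones toward uninjured muscle. No uninjured heart was analysed here.

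Sections with few counts were left out, which kept 24 of 38 sections at 7 dpi, with 20832 to 813848 gene counts each, and 35 of 40 at 3 dpi, with 39495 to 302404. At 7 dpi 25.5% of the kept counts lay in section 34, and of sections 1 to 5 of the 3 dpi heart only section 1 was kept. Each day is a single heart whose sections do not serve as replicates, so no test between groups was possible. Values are counts per 1000000 gene counts (CPM). Ranges in parentheses are exact 95% Poisson intervals of a sum or conditional intervals of a fold, which cover counting error only. PCR copies of a molecule may be counted more than once, and the intervals would then be too narrow. Levels are not compared between single genes, and the ratio of mitosis to replication counts is compared only between sections and between hearts.

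The labelled tissue fitted its markers in the muscle-rich sections. The summed contractile list (11 of 16 listed genes matched, to 16 IDs) stood at 358, 360.5, 474.2, 2315, 5916, 15693 and 36618 CPM in successive blocks of 5 section numbers of the 7 dpi heart. In the 3 dpi heart it stood at 2627, 16966, 36189, 48654, 60989, 58135, 58655 and 72759 CPM. Sections 1 to 10 of the 7 dpi heart thus held little heart muscle RNA: TNNC1, actc1a, ACTC1 and atp2a2a had 0 counts there. Of 15 contractile IDs with at least 50 counts, 13 were at least 2-fold lower there than in sections 21 to 34 and 1 was higher. Of all 4608 genes with at least 50 counts, 23% were lower and 12.2% higher. At 3 dpi myh6 and TNNC1 had 0 counts in sections 1 to 10. The leukocyte list (13 of 23 matched, to 19 IDs) stood at 6126, 4432, 6959, 6221, 3685, 3832 and 1292 CPM along the 7 dpi heart. Along the 3 dpi heart it stood at 11509, 7653, 4119, 2352, 1337, 958.6, 957.3 and 741.1 CPM. Leukocyte IDs with 0 counts in sections 1 to 10 were MFAP4 IDs and tyrobp at 7 dpi, and MFAP4 IDs and lyz at 3 dpi.

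**Figure D1:**
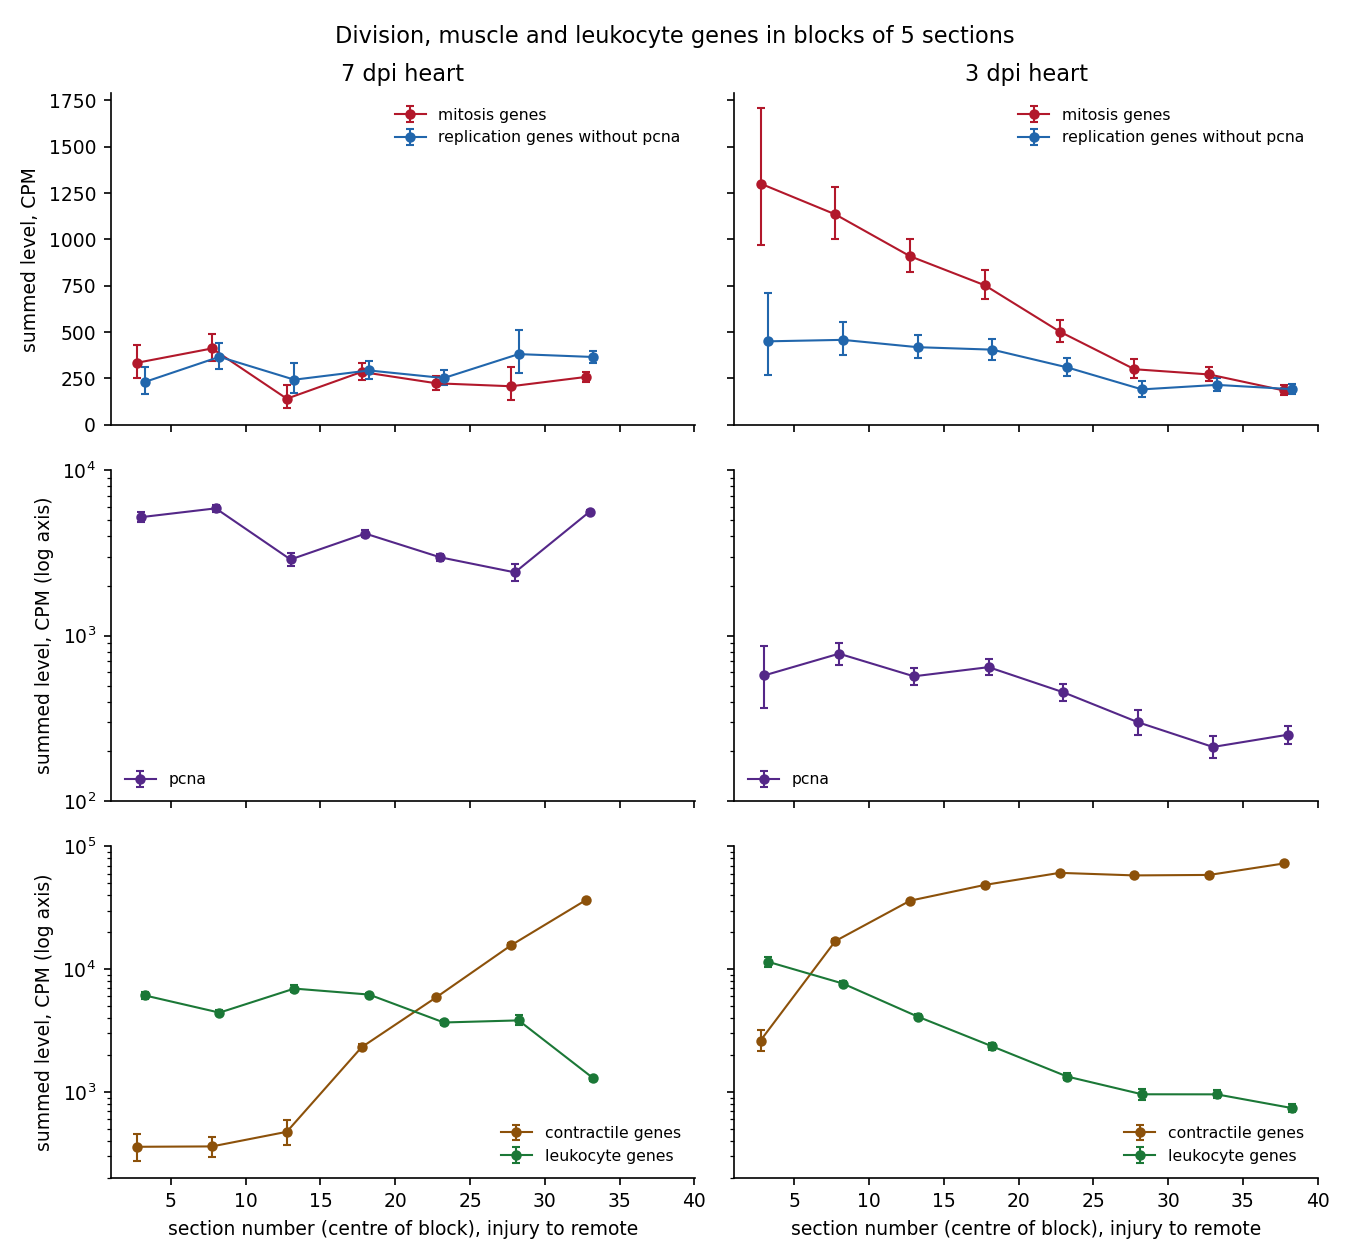
Summed levels (CPM) in blocks of 5 section numbers against position, from the injury to remote muscle, for the 7 dpi heart (left) and the 3 dpi heart (right), with 95% Poisson intervals; the upper row is linear and the lower rows are log axes. The mitosis sum falls along the 3 dpi heart to 185.3 CPM in the block farthest from the injury, and pcna is higher in every block of the 7 dpi heart than in any block of the 3 dpi heart.

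Mitosis genes showed a steep gradient in the 3 dpi heart. Their sum stood at 1301, 1135, 909.2, 752.5, 502.9, 299.9, 271.7 and 185.3 CPM from the injury outward. It was lower in each block than in the one before, though the counting intervals of several neighbouring blocks overlap. Single kept sections ran from 121.6 CPM in section 36 to 1412 CPM in section 7, with a median of 467.9. Sections 1 to 10 held 1160 CPM (1034 to 1297), against 294.5 CPM (274.3 to 315.7) in sections 21 to 40, a fold of 3.94 (3.44 to 4.50). In sections 1 to 10 the single sections ran from 876.9 to 1412 CPM, against 121.6 to 649.3 CPM in sections 21 to 40, so the ranges did not overlap. Sections 11 to 20, between them, held 828 CPM, 2.81-fold (2.55 to 3.11) the level of sections 21 to 40.

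The replication genes without pcna had a shallower profile at 3 dpi. Their sum stood at 450.4, 458.3, 418.8, 405.5, 309.9, 191.2, 215.5 and 192.7 CPM. It was thus level within counting error over the 4 blocks nearest the injury and lower from section 21 on. Sections 1 to 10 held 457.1 CPM, against 223.5 CPM in sections 21 to 40, a fold of 2.04 (1.67 to 2.49). The clamp gene pcna (PCNA, ENSDARG00000054155) stood at 575.5, 778.7, 568.5, 645.6, 455.1, 299.9, 212.9 and 252.4 CPM. Its fold between the same regions was 2.57 (2.19 to 3.01).

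The mix of mitosis and replication transcripts therefore differed along the 3 dpi heart. Mitosis counts over replication counts without pcna stood at 2.89, 2.48, 2.17, 1.86, 1.62, 1.57, 1.26 and 0.961 from the injury outward. The ratio was 2.54 (2.05 to 3.16) in sections 1 to 10, against 1.32 (1.18 to 1.47) in sections 21 to 40. Since it is a ratio of counts within the same sections, it does not depend on how the libraries were scaled. In the 7 dpi heart the same ratio stood at 1.45, 1.12, 0.579, 0.973, 0.888, 0.545 and 0.706. It was 1.21 (0.97 to 1.51) in sections 1 to 10 of the 7 dpi heart, against 0.739 (0.657 to 0.831) in sections 21 to 34. The sums of further genes of the same pathways, described below, did not share this difference at 7 dpi. Over these regions their sums had folds of 1.44 (1.19 to 1.74) for mitosis and 1.7 (1.5 to 1.92) for replication. At 3 dpi those folds were 3.21 (2.69 to 3.83) and 2.14 (1.85 to 2.48), in the order of the members. At 7 dpi RNASEH2A gave 109 of the 366 other replication counts in sections 1 to 10, and 85 of 909 in sections 21 to 34. The fold without RNASEH2A was not computed, so the order at 7 dpi may rest on this gene. In each of the 7 blocks that both hearts hold, the ratio of the members was lower in the 7 dpi heart than in the 3 dpi heart. In the 7 dpi heart CDK2 gave 274 and the RRM2 ID ENSDARG00000078069 gave 122 of the 1019 replication counts. In the 3 dpi heart they gave 54 and 21 of 1117. From section 21 on they gave 197 and 86 of 678 counts at 7 dpi, against 31 and 11 of 602 at 3 dpi. These IDs thus lowered the ratio more at 7 than at 3 dpi, and the lower 7 dpi ratio rests in part on them. The ratio without them was not computed. The mitosis counts also included bub1 and bub1bb, with rows only at 3 dpi, and kif20a, with a row only at 7 dpi.

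**Figure D2:**
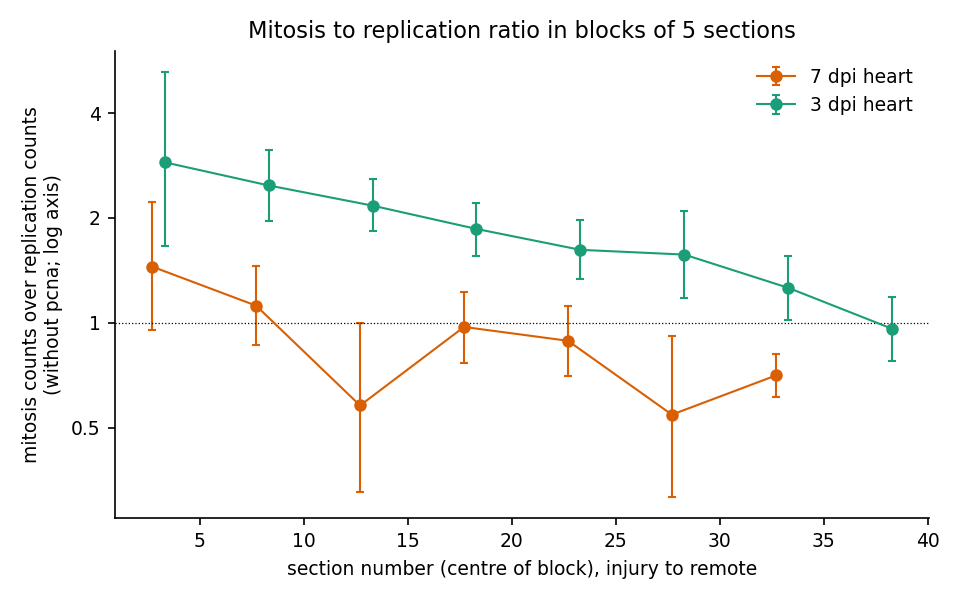
Mitosis counts over replication counts without pcna (log axis) in blocks of 5 section numbers, plotted at the block's centre from the injury to remote muscle, for the 7 dpi and the 3 dpi heart; bars are 95% counting intervals. The 3 dpi ratio runs from 2.89 beside the injury to 0.961 in the last block, and the 7 dpi ratio lies between 0.545 and 1.45.

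Of the 46 member IDs with a row at 3 dpi, 30 had at least 50 counts in the kept sections, the minimum for a fold of a single gene: 10 replication, 16 mitosis and 4 others. Among the 16 mitosis IDs, 15 were at least 2-fold higher in sections 1 to 10 than in sections 21 to 40 and 0 at least 2-fold lower, on log2(CPM + 1) values. The same held for 33.8% of all 4784 genes with at least 50 counts, and 15.8% were at least 2-fold lower. The median log2 difference was 1.59 for the mitosis IDs, 1.02 for the replication IDs and 0.54 over all genes. Of the 10 replication IDs 5 were at least 2-fold higher (CDK2, RRM1, PCNA, MCM4 and TYMS), and of the 4 others 1 was, hmgb2b. MCM6 lay at a ratio of 2 in CPM but just short of 2-fold with the pseudocount, at a log2 difference of 0.97. With median-of-ratios scaling, which lowered the median of all genes by 0.57 on the log2 scale, 9 of the 30 members were at least 2-fold higher and 0 lower, 8 of them mitosis IDs, against 16.4% of all genes higher and 24.7% lower.

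The mitotic kinases, cyclins and checkpoint genes had the largest summed fold of the role groups at 3 dpi, though the intervals of all mitosis groups overlap. Their 10 IDs held 465 CPM in sections 1 to 10, against 102 CPM in sections 21 to 40, a fold of 4.57 (3.66 to 5.67). CDK1 (ENSDARG00000087554), the kinase that starts mitosis, stood at 62 to 300 CPM (median 235) in sections 1 to 10, against 0 to 122 CPM (median 43.5) in sections 21 to 40. Those section ranges overlapped, and the summed fold was 3.89 (2.72 to 5.48). Polo-like kinase plk1 (ENSDARG00000058471), which acts in spindle assembly and mitotic exit, held 75.6 CPM, against 13.7 CPM, a fold of 5.50 (3.02 to 9.72).

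The B-type cyclin gene ccnb3 (ENSDARG00000034855) was highest in sections 6 to 10 of the 3 dpi heart. Section 7 alone held 17.5% of its 57 kept counts there. The value of the first block, 25 CPM, lay below the 75.06 CPM that 3 counts give in that block. Its blocks at 3 dpi stood at 25, 89, 13, 10.1, 19.5, 7.08, 3.92 and 8.52 CPM. It was 8.55-fold (4.55 to 15.9) higher in sections 1 to 10 than in sections 21 to 40, but 1.24-fold (0.55 to 2.61) in sections 11 to 20. CKS1B, a small Cdk-binding subunit, was 2.64-fold (0.97 to 6.21) higher in sections 1 to 10 than in sections 21 to 40. CCNB1, with 39 counts, and the group's other IDs CCNB2, aurka, bub1, bub1bb and cks2 lay below the minimum, with 6 to 49 counts in kept sections.

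The chromosomal passenger genes held 159 CPM in sections 1 to 10, against 36.8 CPM in sections 21 to 40, a fold of 4.32 (2.93 to 6.25). BIRC5 (ENSDARG00000075621), the survivin gene of that complex, had the largest fold of any measured member at 3 dpi, though its interval overlaps that of ccnb3. It stood at 90.7 CPM in sections 1 to 10, against 10.4 CPM in sections 21 to 40, a fold of 8.72 (4.84 to 15.6). The borealin gene cdca8 was higher in sections 11 to 20, at 4.34-fold (2.82 to 6.75) over sections 21 to 40, than in sections 1 to 10, at 3.02-fold (1.39 to 6.06), though these intervals overlap. AURKB, the kinase of the complex, was 2.09-fold (0.784 to 4.80) higher in sections 1 to 10 and 0.994-fold in sections 11 to 20.

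Genes of chromosome structure were summed from 7 IDs, at 298 CPM in sections 1 to 10, against 79.1 CPM in sections 21 to 40, a fold of 3.77 (2.88 to 4.91). TOP2A (ENSDARG00000024488), the topoisomerase that untangles sister DNA, had a fold of 4.87 (2.83 to 8.17), from blocks at 125, 80.1, 56.4, 30.3, 31.9, 9.44, 22.2 and 9.58 CPM. The condensin subunit genes NCAPD2, SMC2 and SMC4 had folds of 3.74 (2.05 to 6.53), 3.10 (1.12 to 7.45) and 1.83 (0.689 to 4.13). SMC4 was the mitosis ID short of 2-fold. The proliferation marker mki67 (ENSDARG00000091150), which coats mitotic chromosomes, stood at 150, 13.3, 65.1, 34.3, 19.5, 11.8, 7.84 and 6.39 CPM. Its fold was 4.73 (2.90 to 7.84) in sections 11 to 20 over sections 21 to 40, and 3.27 (1.36 to 7.13) in sections 1 to 10.

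Spindle and cytokinesis genes had the smallest fold of the mitosis groups, 3.10 (2.30 to 4.12), with 238 CPM in sections 1 to 10, against 76.9 CPM in sections 21 to 40. NUSAP1, a microtubule-bundling protein gene, had a fold of 5.09 (2.13 to 11.4). The anillin gene anln, which organises the cleavage furrow, stood at 31 to 179 CPM (median 86.5) in sections 1 to 10, against 0 to 68.4 CPM (median 22.7) in sections 21 to 40, with a summed fold of 3.02 (1.79 to 4.92). KIF23, a kinesin of the central spindle, and TPX2, a spindle assembly factor gene, had folds of 2.41 (1.02 to 5.07) and 2.2 (0.885 to 4.80).

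**Figure D3:**
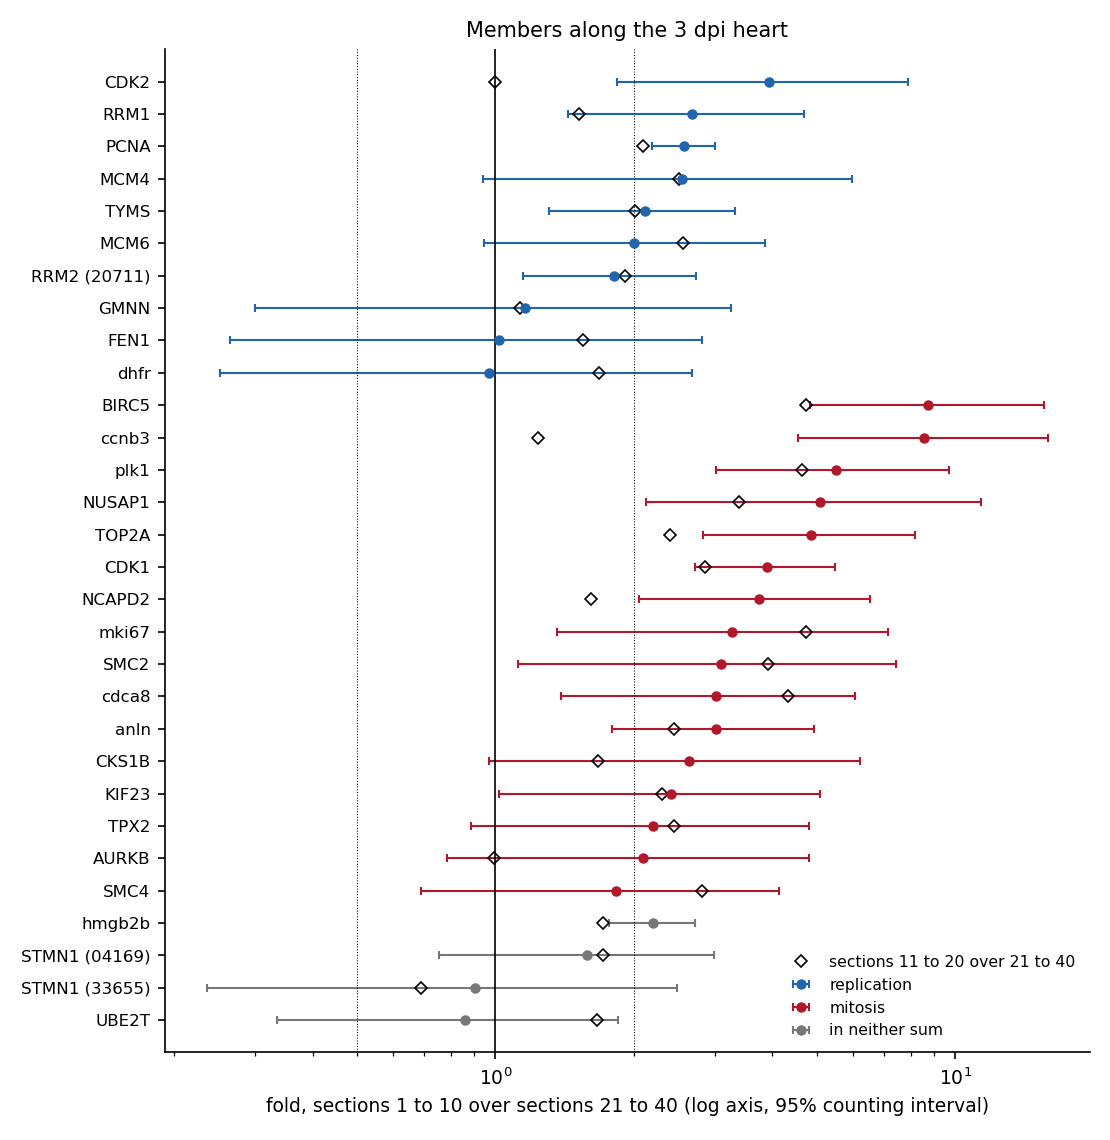
Fold of each member with at least 50 counts in the 3 dpi heart, sections 1 to 10 over sections 21 to 40 (filled points with 95% counting intervals, log axis), and sections 11 to 20 over sections 21 to 40 (open diamonds), by class; numbers in brackets end the Ensembl ID, and dotted lines mark 2-fold. BIRC5 and ccnb3 reach 8.72 and 8.55 in sections 1 to 10, while ccnb3 stays at 1.24 in sections 11 to 20.

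Among replication genes at 3 dpi, the nucleotide supply genes had a fold of 2 (1.54 to 2.57) and the fork and licensing genes without pcna one of 1.82 (1.22 to 2.63), both sections 1 to 10 over sections 21 to 40. RRM1, the large subunit of ribonucleotide reductase, had a fold of 2.67 (1.44 to 4.69), and RRM2 (ENSDARG00000020711), a small subunit, one of 1.81 (1.15 to 2.73). TYMS (ENSDARG00000042894), which makes thymidylate, stood at 50 to 173 CPM (median 64.8) in sections 1 to 10, against 0 to 81.2 CPM (median 42) in sections 21 to 40, with a fold of 2.12 (1.31 to 3.32).

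The MCM helicase genes MCM4 and MCM6 had folds of 2.54 (0.938 to 5.96) and 2 (0.944 to 3.86). In sections 11 to 20 the same genes stood at 2.51-fold (1.41 to 4.47) and 2.56-fold (1.72 to 3.82) over sections 21 to 40. CDK2, the kinase of S-phase entry, had a fold of 3.94 (1.84 to 7.89) from 12 counts in sections 1 to 10 and 31 in sections 21 to 40, and of 0.999 in sections 11 to 20. The flap nuclease gene FEN1, the licensing inhibitor gene GMNN and the folate enzyme gene dhfr had folds of 1.02 (0.264 to 2.81), 1.16 (0.30 to 3.25) and 0.969 (0.252 to 2.67). Each of these 3 rested on 4 counts in sections 1 to 10, so a 2-fold difference was not detectable at this depth. MCM3, MCM5, CHAF1B and the RRM2 ID ENSDARG00000078069 had 4 to 44 counts.

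In sections 11 to 20 against sections 21 to 40 at 3 dpi, 12 of the 16 mitosis IDs, 3 of the 10 replication IDs and 0 of the 4 others were at least 2-fold higher, and 0 lower. Of all genes, 16.1% were at least 2-fold higher and 2.86% lower. Sections 11 to 20 held 42649 CPM of the contractile list, against 63981 CPM in sections 21 to 40, so muscle RNA was abundant there too. Leukocyte genes stood at 3203 CPM, against 961.7 CPM. The part of leukocytes and of other dividing cells in the mitosis levels was not tested.

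Between sections 1 to 10 and sections 11 to 20 of the 3 dpi heart the members differed less. The mitosis sum had a fold of 1.40 (1.22 to 1.6), the replication sum without pcna one of 1.11 (0.898 to 1.36). Of the 16 mitosis IDs, 4 were at least 2-fold higher in sections 1 to 10 (ccnb3, TOP2A, AURKB and NCAPD2), against 14% of all genes. The leukocyte sum had a fold of 2.57 and the contractile sum one of 0.347 in the same comparison.

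The gradients of other cell types at 3 dpi ran beside those of the members. In sections 1 to 10, against sections 21 to 40, the leukocyte sum was 8235 CPM, against 961.7 CPM, and the epicardium list (5 of 6 matched) 4420 CPM, against 1268 CPM. The fibroblast and matrix list (8 of 10 matched) stood at 5576 CPM, against 2242 CPM, and the endothelium list (5 of 9 matched) at 170 CPM, against 164.1 CPM. The folds were 8.56, 3.49, 2.49 and 1.04. Their part in the mitosis gradient was not tested.

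The 7 dpi heart had no such steady gradient. The mitosis sum stood at 334.9, 412, 141, 285.4, 224.1, 208.1 and 258.3 CPM from the injury outward. Sections 1 to 10 held 384.4 CPM (331.1 to 443.8), against 244.8 CPM (223.9 to 267.3) in sections 21 to 34, a fold of 1.57 (1.32 to 1.86). Single sections ran from 45.21 to 796.3 CPM in sections 1 to 10, against 176 to 344.5 CPM in sections 21 to 34, so the ranges overlapped. The highest, section 7, had 26373 gene counts, and its value came mostly from the condensin gene NCAPG. That section held 60.6% of the 33 kept counts of NCAPG. Without section 7 the mitosis fold was 1.47 (1.23 to 1.76), an alternative chosen after seeing the data.

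Replication genes without pcna stood at 231, 366.9, 243.5, 293.3, 252.3, 381.5 and 365.9 CPM along the 7 dpi heart. Their fold in sections 1 to 10 over sections 21 to 34 was 0.961 (0.801 to 1.15). The gene pcna stood at 5191, 5868, 2883, 4133, 2973, 2410 and 5605 CPM, highest at both ends of the axis, with a fold of 1.22 (1.17 to 1.28). Section 34 alone held 33.1% of its kept counts. Over the same regions the contractile sum was 359.6 CPM, against 25865 CPM, a fold of 0.0139. Levels of the members thus differed far less than the muscle content of the sections.

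Of the 45 IDs with a row at 7 dpi, 15 had at least 50 counts in kept sections. Of its 6 mitosis IDs 1, CDK1, was at least 2-fold higher in sections 1 to 10 than in sections 21 to 34 and 1, NCAPD2, at least 2-fold lower. Of the 7 replication IDs 0 were higher and 1, TYMS, lower, and the 2 others, hmgb2b and the STMN1 ID ENSDARG00000004169, lay within 2-fold. Over all 4608 genes 12.2% were at least 2-fold higher and 23% lower. CDK1 held 43.4 CPM, against 20.5 CPM, a fold of 2.11 (1.19 to 3.65). Section 10 alone held 18.2% of its 77 kept counts. Its section medians were alike, at 19.8 CPM in sections 1 to 10, with 3 of 7 sections at 0, against 21 CPM in sections 21 to 34. NCAPD2 held 8.27 CPM from 4 counts, against 22.5 CPM from 46, a fold of 0.368 (0.0961 to 1.01), and section 32 alone held 43.4% of its kept counts.

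Apart from CDK1, NCAPD2 and TYMS, the measured members at 7 dpi lay within 2-fold. In sections 1 to 10 over sections 21 to 34, mki67 had a fold of 1.46 (0.634 to 3.08), cdca8 of 1.55 (0.978 to 2.40), anln of 1.6 (0.723 to 3.31) and SMC4 of 1.84 (0.978 to 3.34). MCM6 had a fold of 1.63 (1.01 to 2.58), MCM4 of 0.682 (0.207 to 1.77) and CDK2 of 0.966 (0.683 to 1.34). The section median of MCM6 was 0 CPM in sections 1 to 10, with 4 of 7 sections at 0, against 19.1 CPM in sections 21 to 34. The RRM2 IDs ENSDARG00000020711 and ENSDARG00000078069 had folds of 0.854 (0.507 to 1.37) and 0.983 (0.572 to 1.61). TYMS, at least 2-fold lower, held 12.4 CPM, against 36.7 CPM, a fold of 0.338 (0.12 to 0.771), from 6 and 75 counts.

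In sections 11 to 20 of the 7 dpi heart, against sections 21 to 34, MCM4 was at least 2-fold higher, at 2.09-fold (1.14 to 3.75), among 7 replication IDs. NCAPD2 was at least 2-fold lower, at 0.201-fold (0.04 to 0.625), among 6 mitosis IDs. Of all genes 14.9% were at least 2-fold higher and 14.5% lower. The sums had folds of 1.03 (0.857 to 1.23) for mitosis and 0.85 (0.719 to 1) for replication without pcna. In sections 1 to 10 against sections 11 to 20, 1 of 6 mitosis IDs, CDK1 at 2.06-fold (0.999 to 4.38), was at least 2-fold higher, against 7.4% of all genes. Of the 7 replication IDs 2 were at least 2-fold lower, MCM4 at 0.327-fold (0.0963 to 0.891) and TYMS at 0.374-fold (0.124 to 0.952), against 21.8% of all genes. The STMN1 ID ENSDARG00000004169 was at least 2-fold higher, at 2.52-fold (0.853 to 8.29).

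Between the days, pcna stood apart from the other members. It held 624 to 6647 CPM in the kept sections of the 7 dpi heart (median 3742), against 50.6 to 1240 CPM in those of the 3 dpi heart (median 371). These ranges overlapped only through section 12 of the 7 dpi heart, at 624 CPM, since the next lowest 7 dpi section lay above every 3 dpi section. Over all kept sections it held 4600 CPM at 7 dpi, against 400 CPM at 3 dpi, a fold of 11.5 (10.9 to 12.1). Other IDs also differed greatly between the tables, such as ENSDARG00000077505, which held 6.44% of counts at 7 dpi, against 0.0231% at 3 dpi. ENSDARG00000080337 went the other way, with 3.68% of counts at 7 dpi, against 20.4% at 3 dpi, which lowers the CPM of all other genes at 3 dpi. Whether both tables were counted with the same annotation was not tested. The fold of pcna was 7.52 (6.51 to 8.73) in sections 1 to 10, 6.31 (5.76 to 6.92) in sections 11 to 20 and 15.8 (14.7 to 17) from section 21 on. Of 7491 genes with at least 50 counts over both hearts, 181, or 2.42%, were at least as far up as pcna. Of the 149 genes with at least 1000 CPM at 7 dpi, 23 were. That set was chosen by a high level at 7 dpi, so it is tilted toward genes higher on that day. A RefSeq gene table (GRCz12tu) places trim69 over the pcna locus. That gene had 25 counts at 7 dpi and 15 at 3 dpi.

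The replication sum at 7 over 3 dpi therefore turned on pcna. With pcna it was 4.93 (4.39 to 5.55) in sections 1 to 10. Without pcna it was 0.696 (0.545 to 0.891) there, 0.684 (0.571 to 0.816) in sections 11 to 20 and 1.48 (1.33 to 1.66) from section 21 on. Over all kept sections it was 1.12 (1.03 to 1.22), with 319 CPM at 7 dpi, against 285.4 CPM at 3 dpi. Of its 1019 counts at 7 dpi, CDK2 gave 274 and the RRM2 ID ENSDARG00000078069 gave 122. At 3 dpi they gave 54 and 21 of 1117. From section 21 on they gave 197 and 86 of 678 counts at 7 dpi, against 31 and 11 of 602 at 3 dpi. The 11 measured IDs other than pcna had a median log2 difference of -0.56 over all kept sections, against 0.15 over all genes. The mitosis sum, over IDs in both tables, was 0.343 (0.284 to 0.413) in sections 1 to 10, 0.309 (0.26 to 0.366) in sections 11 to 20 and 0.848 (0.756 to 0.949) from section 21 on. Over all kept sections it held 267 CPM at 7 dpi, against 472.1 CPM at 3 dpi, a fold of 0.566 (0.521 to 0.614).

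**Figure D4:**
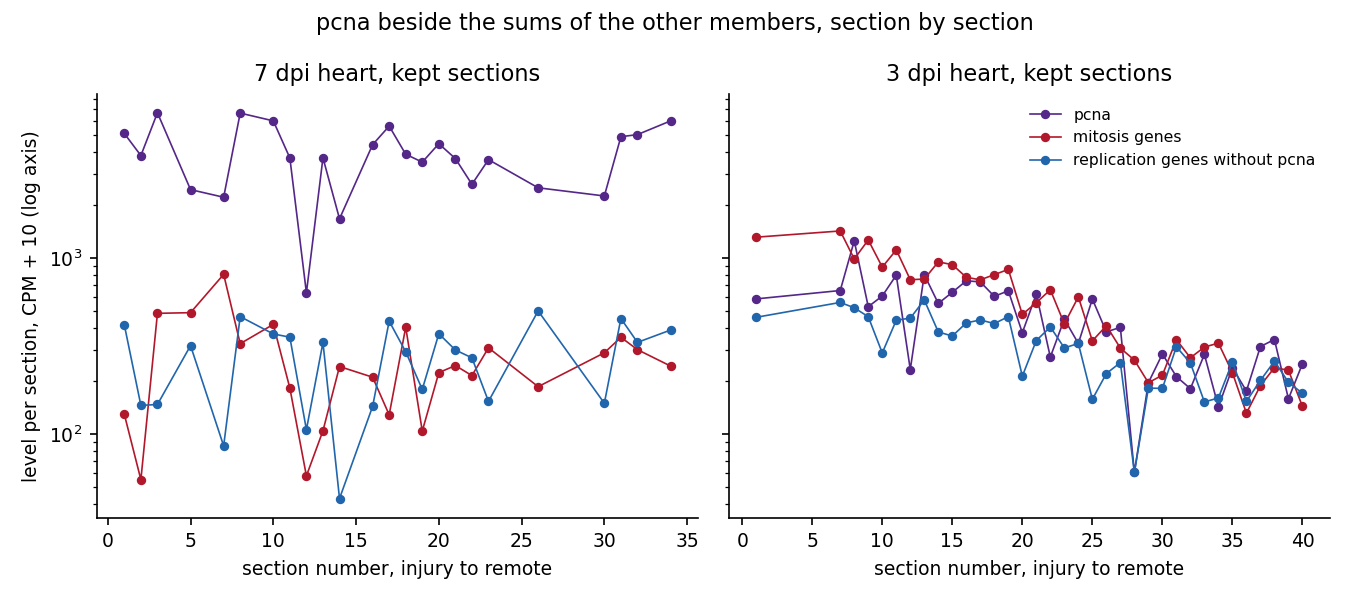
Levels per kept section (CPM + 10, log axis) of pcna, the mitosis sum and the replication sum without pcna against section number, from the injury to remote muscle, in the 7 dpi heart (left) and the 3 dpi heart (right). The pcna points run from 624 to 6647 CPM at 7 dpi and from 50.6 to 1240 CPM at 3 dpi, and the mitosis points from 45.21 to 796.3 CPM at 7 dpi and from 121.6 to 1412 CPM at 3 dpi. The highest mitosis point at 7 dpi, section 7, comes mostly from NCAPG.

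Besides pcna, 2 replication IDs were at least 2-fold higher at 7 than at 3 dpi over all kept sections. CDK2 (ENSDARG00000026577) held 85.8 CPM at 7 dpi, against 13.8 CPM at 3 dpi, a fold of 6.22 (4.63 to 8.49). It had a count in 16 of 24 kept sections at 7 dpi and in 22 of 35 at 3 dpi, with highest sections of 208 and 100 CPM. The RRM2 ID ENSDARG00000078069 held 38.2 CPM at 7 dpi, against 5.37 CPM at 3 dpi, a fold of 7.12 (4.46 to 11.9). Its copy ENSDARG00000020711 held 48.5 CPM at 7 dpi, against 72 CPM at 3 dpi, a fold of 0.674 (0.55 to 0.822). The RRM2 IDs thus differed in direction, and how the counting divided reads between them was not tested.

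Over all kept sections, 3 of 12 replication IDs were at least 2-fold higher at 7 than at 3 dpi and 1, GMNN, lower, at 0.37-fold (0.197 to 0.657). Of 22 mitosis IDs 0 were higher and 8 lower, and of the 4 others 0 were higher and 2 lower. Of all genes 25.8% were at least 2-fold higher and 18.2% lower. The medians of the log2 differences were -0.44 for replication, -0.80 for mitosis and 0.15 over all genes. MCM6 had a fold of 1.45 (1.13 to 1.87) and MCM4 of 1.16 (0.796 to 1.70), while MCM5, dhfr, FEN1, TYMS and RRM1 had folds of 0.78, 0.604, 0.594, 0.571 and 0.512.

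The 8 mitosis IDs at least 2-fold lower at 7 than at 3 dpi came from most of the role groups. The kinase and cyclin genes CDK1, plk1, CCNB1 and ccnb3 had folds of 0.32 (0.246 to 0.412), 0.332 (0.217 to 0.495), 0.44 (0.221 to 0.828) and 0.215 (0.0979 to 0.425). The chromosome genes TOP2A and SMC2 had folds of 0.317 (0.203 to 0.481) and 0.217 (0.103 to 0.416). The spindle and furrow genes NUSAP1 and anln had folds of 0.113 (0.0354 to 0.281) and 0.444 (0.323 to 0.603), though 80% of the 5 kept counts of NUSAP1 at 7 dpi came from section 34.

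Of the other 14 mitosis IDs, 9 had folds from 0.486 to 0.788 at 7 over 3 dpi, among them AURKB at 0.486 (0.278 to 0.819), BIRC5 at 0.52 (0.353 to 0.753), TPX2 at 0.557 (0.362 to 0.841), KIF23 at 0.581 (0.382 to 0.87) and mki67 at 0.788 (0.549 to 1.12). The remaining 5 had folds above 1. The borealin gene cdca8 had a fold of 1.49 (1.15 to 1.95), with 128 counts at 7 dpi and 105 at 3 dpi. SMC4 had a fold of 1.02 (0.736 to 1.42), kif11, a spindle motor gene, of 1.08 (0.639 to 1.82), PRC1, a central spindle gene, of 1.09 (0.647 to 1.81) and NCAPG of 1.09 (0.662 to 1.80). For NCAPG, section 7 alone held 60.6% of the 33 kept counts at 7 dpi. The passenger genes as a group had a fold of 0.911 (0.751 to 1.1), with cdca8 giving 128 of their 191 counts at 7 dpi and 105 of 257 at 3 dpi, against 0.353 (0.297 to 0.417) for the mitotic kinases, cyclins and checkpoint genes. The chromosome structure genes lay between, at 0.65 (0.559 to 0.754), as did the spindle and cytokinesis genes, at 0.571 (0.482 to 0.674).

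**Figure D5:**
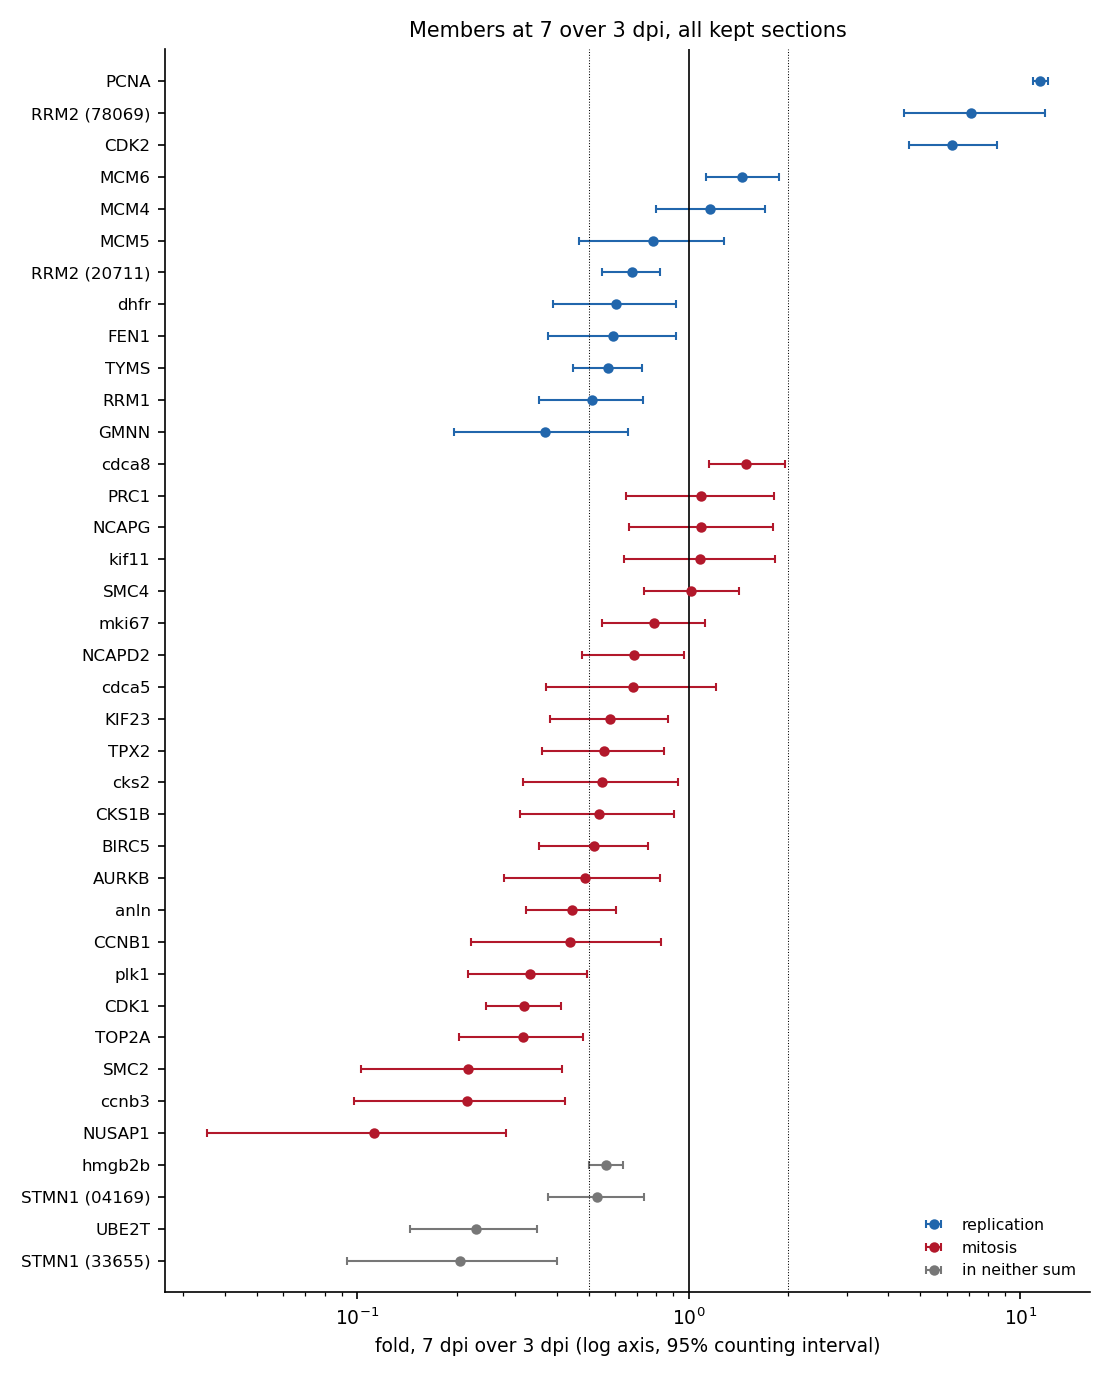
Fold at 7 over 3 dpi over all kept sections (log axis, 95% counting intervals) of each member with at least 50 counts over both hearts, by class; numbers in brackets end the Ensembl ID, and dotted lines mark 2-fold. PCNA, the RRM2 ID ENSDARG00000078069 and CDK2 lie at 11.5, 7.12 and 6.22. The 8 mitosis genes at least 2-fold lower on log2(CPM + 1) values lie below the lower dotted line, as does AURKB, which was short of 2-fold on those values.

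Within sections 1 to 10 the contrast between days was wider. Of 22 mitosis IDs 16 were at least 2-fold lower at 7 than at 3 dpi and 0 higher, and of 12 replication IDs 6 were lower and 3 higher, PCNA, CDK2 and the RRM2 ID ENSDARG00000078069. Of all genes 39.1% were at least 2-fold lower and 19.3% higher there. The median log2 difference was -1.87 for mitosis IDs and -0.55 over all genes. CDK1 held 43.4 CPM at 7 dpi, against 178 CPM at 3 dpi, a fold of 0.244 (0.139 to 0.417). TOP2A held 10.3 CPM at 7 dpi, against 86.9 CPM at 3 dpi, a fold of 0.119 (0.0353 to 0.32). PRC1, NUSAP1 and SMC2 had 0 counts at 7 dpi in sections 1 to 10, against 6, 10 and 7 at 3 dpi. With the 7 dpi value put at a floor of 3 counts in the region, they were 3.66-fold, 6.09-fold and 4.27-fold lower at 7 dpi. These folds leave out the counting error of the 3 dpi counts. With these genes at that floor the mitosis median was -1.77.

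With median-of-ratios scaling, which raised the median of all genes in sections 1 to 10 by 0.51 on the log2 scale, 13 mitosis IDs were at least 2-fold lower at 7 than at 3 dpi and 2 higher, and 3 replication IDs were lower and 3 higher. Of all genes 28.5% were then at least 2-fold lower and 26.4% higher. Sections with the same number need not hold the same tissue in both hearts. In sections 1 to 10 the contractile sum was 359.6 CPM at 7 dpi, against 14801 CPM at 3 dpi, and the leukocyte sum 5039 CPM at 7 dpi, against 8213 CPM at 3 dpi, over IDs in both tables. The part of these differences in the members' values was not tested.

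In sections 11 to 20, 17 of 22 mitosis IDs were at least 2-fold lower at 7 than at 3 dpi and 0 higher, and 4 of the 4 others were lower, against 27% of all genes lower and 25.9% higher. Of the 12 replication IDs 6 were lower, RRM1, TYMS, dhfr, FEN1, GMNN and the RRM2 ID ENSDARG00000020711, and PCNA, CDK2 and the RRM2 ID ENSDARG00000078069 were higher. The kinase gene plk1 stood at 0.0472-fold (0.00559 to 0.178) from 2 and 61 counts, and NCAPD2 at 0.154-fold (0.03 to 0.5). CDK1, with 14 and 125 counts, stood at 0.161-fold (0.0857 to 0.281). The genes ccnb3 and NUSAP1 had 0 counts at 7 dpi, against 11 and 24 at 3 dpi. With the 7 dpi value at the floor of 3 counts they were 2.55-fold and 5.55-fold lower, leaving out the counting error at 3 dpi. The leukocyte sum was 6393 CPM at 7 dpi, against 3199 CPM at 3 dpi, in these sections, and the contractile sum 1882 CPM at 7 dpi, against 42649 CPM at 3 dpi.

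From section 21 on, cdca8 was the mitosis ID at least 2-fold higher at 7 than at 3 dpi, at 2.81-fold (1.88 to 4.27), and CDK1, ccnb3, NUSAP1 and SMC2 were lower. PCNA, CDK2 and the RRM2 ID ENSDARG00000078069 were the 3 replication IDs higher, at 15.8-fold, 8.36-fold (5.71 to 12.6) and 10.3-fold (5.47 to 21.4), and 0 were lower. Of all genes 30.9% were at least 2-fold higher and 17% lower. The fibroblast and matrix sum was 10097 CPM at 7 dpi, against 2242 CPM at 3 dpi, in these sections, and the endothelium sum 801.5 CPM at 7 dpi, against 164.1 CPM at 3 dpi. Their part was not tested.

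The members with roles outside division were in neither sum. The chromatin protein gene hmgb2b (ENSDARG00000053990), abundant in dividing cells, stood at 251 to 778 CPM (median 325) in sections 1 to 10 of the 3 dpi heart, against 25.3 to 303 CPM (median 176) in sections 21 to 40. Its fold was 2.2 (1.77 to 2.72) at 3 dpi and 1.35 (1.04 to 1.74) at 7 dpi. At 7 over 3 dpi it was 0.564 (0.501 to 0.635) over all kept sections. UBE2T, a ubiquitin-conjugating enzyme gene of DNA crosslink repair, had a fold of 0.858 (0.335 to 1.85) in sections 1 to 10 and of 1.66 (1.14 to 2.39) in sections 11 to 20 over sections 21 to 40 of the 3 dpi heart, and of 0.229 (0.145 to 0.35) at 7 over 3 dpi.

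The stathmin IDs, whose protein destabilises microtubules, had folds of 1.58 (0.753 to 2.99) for ENSDARG00000004169 and 0.904 (0.236 to 2.48) for ENSDARG00000033655 in sections 1 to 10 over sections 21 to 40 at 3 dpi. At 7 over 3 dpi they stood at 0.529 (0.377 to 0.734) and 0.204 (0.0932 to 0.402). HMGB2 had 4 counts at 7 dpi and 2 at 3 dpi. The least counted mitosis members were CCNB2, with 2 counts at 7 dpi and 6 at 3 dpi, aurka, with 2 and 15, kif20a, with 1 count and a row only at 7 dpi, and bub1 and bub1bb, with 9 and 35 counts and rows only at 3 dpi. CENPF had 14 counts at 7 dpi and 13 at 3 dpi, MCM3 had 1 and 4, CHAF1B 10 and 13 and cdca5 20 and 36.

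Further genes of the same pathways, listed by function, were counted in the 3 dpi heart. Of 13 other replication IDs with at least 50 counts 6 were at least 2-fold higher in sections 1 to 10 than in sections 21 to 40, and of 7 other mitosis IDs 6 were, with 0 lower in either, against 33.8% of all genes higher and 15.8% lower. The most counted were RPA3, a single-strand DNA binding subunit, LIG1, the ligase of replication, and GINS4, a helicase cofactor, with folds of 2.6, 2.1 and 2.69. The spindle checkpoint gene MAD2L1 and the cohesin gene SMC3 had folds of 3.24 and 2.70, and the lamin gene LMNB1 one of 1.33 (0.463 to 3.11).

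At 7 dpi, 4 of 10 other replication IDs and 1 of 4 other mitosis IDs were at least 2-fold higher in sections 1 to 10 than in sections 21 to 34, with 0 lower, against 12.2% of all genes higher and 23% lower. RNASEH2A (ENSDARG00000018891), a subunit of the nuclease that removes RNA from DNA, held 225 CPM in sections 1 to 10, against 41.5 CPM in sections 21 to 34, a fold of 5.42 (4.05 to 7.29). Over all kept sections it held 68.9 CPM at 7 dpi, against 10.2 CPM at 3 dpi, a fold of 6.74. RPA1 and RPA2 had folds of 2.08 and 0.631 along the 7 dpi heart. The checkpoint kinase gene TTK had a fold of 1.68 and cdc25b, the phosphatase that activates Cdk1, one of 3.94. The sums had folds of 1.7 (1.5 to 1.92) for other replication genes and 1.44 (1.19 to 1.74) for other mitosis genes. RNASEH2A gave 109 of the 366 other replication counts in sections 1 to 10.

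At 7 over 3 dpi over all kept sections, 2 of 26 other replication IDs were at least 2-fold higher and 4 lower, and 2 of 15 other mitosis IDs were higher and 3 lower, against 25.8% of all genes higher and 18.2% lower. TTK held 32.6 CPM at 7 dpi, against 7.66 CPM at 3 dpi, a fold of 4.25, and MAD2L1 26.3 CPM at 7 dpi, against 46.2 CPM at 3 dpi, a fold of 0.569. The sums had folds of 1.03 (0.959 to 1.1) for other replication genes and 0.868 (0.792 to 0.952) for other mitosis genes.

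A list of cell cycle brakes (19 of 23 matched, to 20 IDs) was counted in the same way. It also held regulators that are not direct brakes, such as mdm2 and cdkn2aipnl, so its counts are not those of brakes alone. Of 14 measured IDs at 3 dpi 8 were at least 2-fold higher in sections 1 to 10 than in sections 21 to 40 and 1 lower, against 33.8% of all genes higher and 15.8% lower, while their sum, led by CCNG1, had a fold of 1.06 (0.977 to 1.14). Of 9 measured IDs at 7 dpi 2 were higher and 2 lower in sections 1 to 10 than in sections 21 to 34, against 12.2% and 23% of all genes. CCNG1, a p53 target that modulates Mdm2, had a fold of 0.348 (0.306 to 0.395) along the 7 dpi heart and 0.669 along the 3 dpi heart. At 7 over 3 dpi, 1 of 14 IDs of this list was at least 2-fold higher and 6 lower, against 25.8% and 18.2% of all genes. Their median log2 difference was -0.83. The antiproliferative genes BTG1 and BTG2 had folds of 0.252 (0.229 to 0.277) and 0.27 (0.23 to 0.316) between the days. BTG1 held 169 CPM at 7 dpi, against 670 CPM at 3 dpi.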

How the data were processed

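CEL-seq counts of single cryosections of 1 heart per day were used. The authors deposited whole-number read counts per Ensembl gene and section, and each table was checked to hold whole numbers of at least 0. RNA was extracted with TRIzol and sequenced in pairs of 75 bp, per the labels' protocols. BWA 0.6.2 is named in the submitters' processing notes, and the genome build, annotation and any use of molecular identifiers are not given in the sources used here.

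Members were matched to gene IDs by symbol in any case, and capital symbols could lack a final a or b. The members and all lists were chosen with earlier results of these data known. Sections under 20% of the 75th percentile of section totals were left out. Counts were summed in blocks of 5 sections and in sections 1 to 10, 11 to 20 and from 21 on, and divided by the gene counts of the same sections. A gene counted as at least 2-fold different at a log2(CPM + 1) difference of 1, among genes with at least 50 counts in the kept sections of the heart, or of both hearts between days. Intervals are 95% Poisson or conditional binomial ones. Python 3.11.15, numpy 2.4.6, scipy 1.17.1, pandas 2.3.3 and matplotlib 3.10.9 were used. The steps were tested on simulated Poisson counts, which hold no PCR copies. Genes were named if they were members with at least 50 counts in a heart, with values by section for the most counted members. From each further list the 3 most counted genes per heart were named. Members below 50 counts were named after their values were seen. Gene overlap at pcna came from a RefSeq table of another assembly, used for names only.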

Additional observations from a re-analysis of the deposited data

Results flagged for a closer look

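TYMS was the member whose counting intervals lay on opposite sides of 1 in the hearts. In sections 1 to 10 over sections 21 on it had a fold of 0.338 (0.12 to 0.771) at 7 dpi, from 6 counts in sections 1 to 10, and of 2.12 (1.31 to 3.32) at 3 dpi, from 24 counts. This difference was not tested. NCAPD2 was also at least 2-fold lower at 7 dpi and higher at 3 dpi, with folds of 0.368 (0.0961 to 1.01) and 3.74 (2.05 to 6.53), and CDK2, MCM4 and the RRM2 ID ENSDARG00000020711 had folds below 1 at 7 dpi and above 1 at 3 dpi with a 7 dpi interval that held 1.

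The sections left out for few counts also held member transcripts, at levels above the limit that a count of 0 allows. The 14 such sections of the 7 dpi heart, with 111570 gene counts together and a floor of 26.9 CPM, held 260 CPM of mitosis genes, 260 CPM of replication genes without pcna and 2519 CPM of pcna. The 5 such sections of the 3 dpi heart, sections 2 to 6, with 70293 gene counts and a floor of 42.7 CPM, held 854 CPM of mitosis genes, 341 CPM of replication genes without pcna and 512 CPM of pcna.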

How the results depend on the processing

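Of 72 alternative values 48 stayed close to the reported one, 22 moved and 2 changed direction, both on leaving out pcna. For folds, close meant within the interval of the reported fold. For counts of members it was looser and took in 14 and 29 beside 21. Leaving out the section of most counts, 34 at 7 dpi and 37 at 3 dpi, could not change the folds between days in sections 1 to 10. Those values were still counted as close. No paired analysis was possible because each day was 1 heart and both titles carry the same number. For sections 1 to 10 over sections 21 on at 3 dpi, the replication fold of 2.34 was 1.57 with median-of-ratios scaling, 1.98 with totals without IDs of at least 2% of counts and 2.04 without pcna. The mitosis fold of 3.94 was 2.64 and 3.33 under the same 2 scalings and 3.11 with stmn1a, hmgb2a and hmgb2b added. The 21 of 30 members at least 2-fold higher were 9 of 30 with median-of-ratios scaling and 14 of 30 with a pseudocount of 10 CPM. They were 16 of 28 with a section minimum of 40% and 16 of 27 without section 37. With at least 20 counts they were 29 of 39, and with at least 1 count 32 of 46. At 7 dpi the replication fold of 1.2 was 1.32 with a section minimum of 40%, 1.3 without IDs of at least 2%, 1.12 without contractile and mitochondrial genome genes in the totals, 1.49 without section 34 and 0.961 without pcna. No alternative moved the 7 dpi mitosis fold of 1.57 beyond its interval. The 1 of 15 members at least 2-fold higher was 0 with a section minimum of 5%, a pseudocount of 10 CPM, without section 34 or between the outer parts of the kept sections split evenly in 3 by position, 2 of 14 with a minimum of 40%, 2 of 32 with at least 20 counts and 6 of 45 with at least 1 count. At 7 over 3 dpi in sections 1 to 10, the replication fold of 4.93 was 7.05 with median-of-ratios scaling, 4.25 as a mean of section CPM and 0.696 without pcna, and the mitosis fold of 0.343 was 0.49 with median-of-ratios scaling. Without section 7 of the 7 dpi heart, left out after seeing the data, the mitosis folds were 1.47 at 7 dpi and 0.321 between days. The causes of these shifts were not tested. With 1 heart per day, a difference between days and one between hearts cannot be told apart, and depth limits most single members at 7 dpi, where 15 of 45 had at least 50 counts.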
